A study of Mus musculus with 2 samples.

Results

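A set of 10 genes that mark the resident macrophages of tissues was followed through polyadenylated RNA of mouse adipose tissue: Adgre1, Cd68, Csf1r, Mrc1, Cd163, Lyz2, Cd14, Itgam, Trem2 and Folr2. They were taken by name from the gene tables of both libraries, and all 10 were found among 43346 mouse genes. The tissue came from a male C57BL/6J mouse, an adult of 10 weeks, and no treatment or genotype is given. The labels hold 1 group, made of 1 biosample that was sequenced as technical libraries 1 and 2, and they date the second to May 2015. Any difference in date between the libraries cannot be told apart from the library itself. Every SD below is the technical spread between n = 2 libraries of that biosample. The labels name neither the fat depot nor any cell sorting, so the RNA was taken to be that of unsorted tissue.

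Macrophages are phagocytes that settle in almost every organ, and in fat they lie between adipocytes and along vessels, where they clear dead cells, take up lipid and iron, and respond to microbial products. Their survival depends on the receptor encoded by Csf1r. The other markers serve uptake (Mrc1, Cd163, Folr2), the lysosome (Cd68, Lyz2), and adhesion or sensing at the cell surface (Adgre1, Itgam, Cd14, Trem2). Several are also expressed by monocytes, neutrophils or dendritic cells, so no single one defines a macrophage.

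The sequences of the lysozyme pair and of the start of Trem2 are shown first, because the values of these genes depend on which reads were assigned to them. Lyz2 and its neighbour Lyz1 both encode lysozyme, the enzyme that cuts bacterial cell walls, and their coding sequences are 447 bases long with the stop codon. They differ at 22 bases, an identity of 95.1%, and the longest stretch without a difference is 118 bases. The first 300 coding bases are printed, which hold 20 of the differences, and capitals mark the bases that differ. The sequences are those of GENCODE M21 on mm10, spliced from exons within chr10:117280642-117282242 for Lyz2 and chr10:117291030-117292838 for Lyz1, both on the minus strand.
Lyz2: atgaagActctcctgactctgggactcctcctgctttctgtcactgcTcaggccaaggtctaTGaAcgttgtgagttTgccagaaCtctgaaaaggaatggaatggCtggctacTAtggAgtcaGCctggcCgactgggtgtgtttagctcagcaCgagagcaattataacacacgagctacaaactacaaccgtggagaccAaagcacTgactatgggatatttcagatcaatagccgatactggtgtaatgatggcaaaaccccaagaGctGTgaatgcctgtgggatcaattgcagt
Lyz1: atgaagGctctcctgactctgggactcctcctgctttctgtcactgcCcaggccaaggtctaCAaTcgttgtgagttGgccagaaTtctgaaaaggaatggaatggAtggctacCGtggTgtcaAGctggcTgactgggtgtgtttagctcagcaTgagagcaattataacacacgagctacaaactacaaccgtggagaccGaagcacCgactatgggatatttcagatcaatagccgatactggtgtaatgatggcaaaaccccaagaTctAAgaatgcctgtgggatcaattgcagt

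Trem2 lies on the plus strand of chromosome 17. Its coding transcript Trem2-201 joins exon 1 to exon 2 across an intron of 1861 bases (chr17:48346596-48348456), and the annotated transcript Trem2-203 keeps that intron. Both are shown over 60 bases from the same start within exon 1, and capitals mark what follows the end of exon 1.
Trem2-201: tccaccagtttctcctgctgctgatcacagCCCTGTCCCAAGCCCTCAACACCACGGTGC
Trem2-203: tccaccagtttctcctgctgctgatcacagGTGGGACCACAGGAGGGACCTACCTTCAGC

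The libraries held 19954869 and 19256807 expected counts, which are estimated numbers of fragments assigned to annotated genes. Mitochondrial genes and the genes that overlap their nuclear copies on chromosome 1, 44 in all, took 51.7% of the TPM (the share of all transcripts that a gene holds after division by length) in library 1 and 15.9% in library 2. That leaves less of the total TPM for the remaining genes in library 1. Adipocyte markers were present: all 10 genes listed reached 1 TPM in both libraries, with medians of 83.3 and 874 TPM. The 8 genes of epididymal epithelium, the lining of the duct in which sperm mature, had medians of 3370 and 4850 TPM, so genes of another tissue stood beside those of fat, and the part of that tissue in the marker levels was not tested. In such bulk RNA, fewer cells of a type and less RNA per cell cannot be told apart.

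The markers were expressed over a wide range. Of the 10 markers, 9 reached 1 TPM in both libraries and the exception was Trem2. Its 0.29 TPM in library 1 came from 23 counts over a length of 4784 bases, against 1247.14 bases in library 2. The level of 1 TPM was reached in both by 57.1% of protein-coding genes, 30.5% of all mouse genes and 72.2% of genes with at least 10 counts. The medians of the markers were 9.1 and 20.8 TPM in the libraries, against 2.09 and 6.01 TPM for protein-coding genes. The order by mean TPM was Lyz2, Mrc1, Csf1r, Folr2, Cd68, Adgre1, Cd163, Itgam, Cd14 and Trem2. Only Lyz2 stood apart from its neighbour, with both libraries above both of Mrc1. For every other pair of neighbours the ranges over the libraries overlapped, so that order is not resolved. Csf1r, Folr2, Cd68, Cd14 and Trem2 moved up among protein-coding genes from library 1 to library 2, and Lyz2 from percentile 98.3 to 98.8. The other 4 moved down, Mrc1 from 91.3 to 76.7, Adgre1 from 72.8 to 66.7, Cd163 from 70.5 to 64.1 and Itgam from 70.1 to 61.1. Together the markers held 8715.3 counts in library 1 and 14342.67 in library 2, a share of 0.0437% and 0.0745%.

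**Figure D1:**
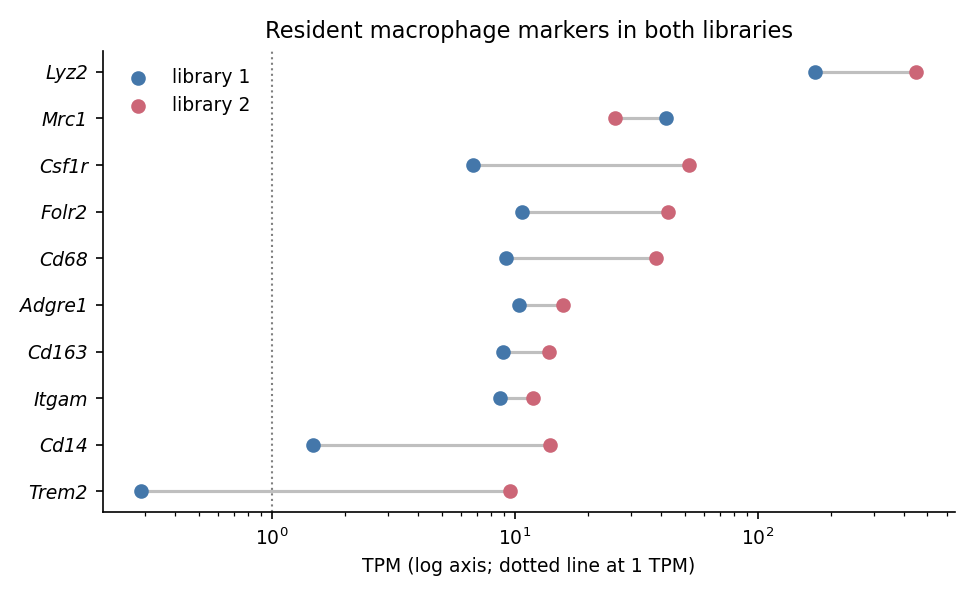
TPM of the 10 markers (log axis) in library 1 and library 2, 1 point per library joined by a grey line, ordered by mean TPM. Lyz2 reached 173 and 448 TPM, Mrc1 was the only marker lower in library 2, and Trem2 was under 1 TPM in library 1.

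Between the libraries, a ratio was computed from counts scaled by TMM, a scaling to a common trimmed mean, and a gene was called higher or lower when it differed by at least 2-fold. A single library on either side allows no test and no replicate check, and the 95% intervals given with the log2 ratios cover counting error only. By that rule 5 markers were higher in library 2 (Csf1r, Folr2, Cd68, Cd14 and Trem2), against 31.3% of 18275 genes with at least 10 counts. One marker, Mrc1, was lower, against 19.9% of those genes, and 4 were called in neither direction. The median log2 ratio of the markers was 0.95, against 0.02 for all genes tested. Scaled to total counts instead, Lyz2 joined the higher markers, 6 against 38.4% of genes, and 0 were lower, against 7.62%. By the ratio of TPM the same 6 were higher, against 43.1% of genes, and 0 were lower, against 4%.

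The split followed base composition. The 5 markers with transcripts of 50% GC or more were the 5 that were higher in library 2, with log2 ratios from 1.26 to 2.49, and 62.1% of the 8837 tested genes of that composition were called higher as well. The 5 markers under 50% GC held no higher call, and their ratios ran from -1.21 to 0.64; of the 9310 tested genes of that kind 2.32% were higher and 37.3% lower. Spearman's rho between the log2 ratio and GC content was 0.806 over the 10 markers and 0.859 over all tested genes, which share the same 2 libraries. After the median ratio of genes with like GC content was taken away, 2 markers remained past 2-fold higher, Cd14 at 1.46 and Trem2 at 1.13 on the log2 scale, against 12% of genes. Their GC bin median was 1.02. With it taken off, the lower ends of their counting intervals, 1.99 for Cd14 and 1.53 for Trem2, fall below 2-fold. No marker was past 2-fold lower with the trend removed, against 9.96% of genes, and the 10 values ran from -0.29 for Itgam to 1.46. With the trend removed, 9 of 10 markers lay above 0, with a median of 0.47 and Mrc1 at 0.01. The median gene of each GC bin lies at 0 by construction, and the share of all genes above 0 was not counted. Higher and lower counts in the lists below stand against 31.3% and 19.9% of tested genes, or 12% and 9.96% without the GC trend.

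**Figure D2:**
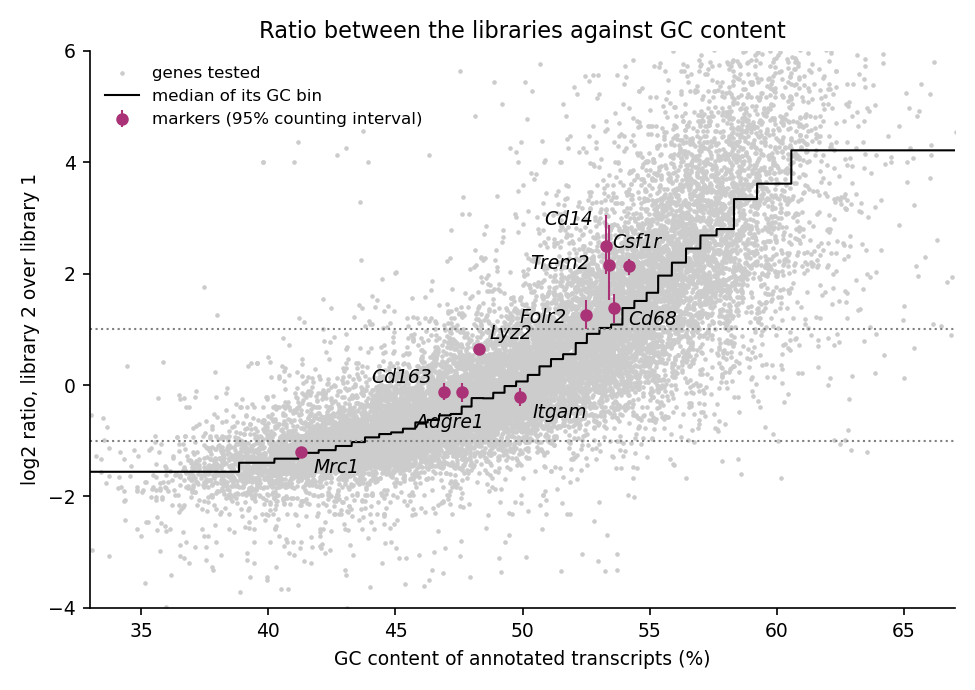
Log2 ratio of scaled counts, library 2 over library 1, against the GC content of annotated transcripts in percent, for the tested genes (grey), the median of each of 40 GC bins (black line) and the 10 markers (purple, with 95% counting intervals). Dotted lines mark 2-fold, a few grey genes lie outside the axes, and Mrc1 at 41.3% GC and Csf1r at 54.2% GC sit at the ends of the markers' range.

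Csf1r, the receptor tyrosine kinase through which Csf1 and Il34 keep macrophages alive (chr18:61100598-61132149, plus strand), had 466 counts in library 1 and 2661 in library 2. Its level was 6.76 and 52.21 TPM, or 29.5 ± 32.1 TPM (SD, n = 2). It was higher in library 2, with a log2 ratio of 2.13 (interval 1.98 to 2.27) and 0.74 after the GC trend was removed. Csf1r overlaps Hmgxb3, which runs on the opposite strand, over 873 bases, and Hmgxb3 had 142 and 758 counts. Whether counting used strand is not given in the sources used here, so both counts are uncertain by an amount that was not tested. The 2 transcripts of Csf1r differ, and 21.6% of the 4701 bases of Csf1r-202 lie outside Csf1r-201. Csf1r-202 took 41.55% of the gene's TPM in library 1 and 14.67% in library 2.

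Both ligands of the receptor were measured. Csf1, the secreted growth factor, was at 17.95 and 22.75 TPM, a level that exceeded Csf1r in library 1 and fell short of it in library 2. Il34, the second ligand, was at 1.27 and 32.87 TPM, with a log2 ratio of 3.58 (interval 3.10 to 4.16), which became 0.90 without the GC trend. In the list of the Csf1 axis with related receptors, 5 of 7 genes reached 1 TPM in both libraries, and of 6 tested 5 were higher and 0 lower, against 31.3% and 19.9% of all tested genes. Without the GC trend 0 were higher and 1 lower, and the median log2 ratio went from 1.79 to 0.37. Csf2, the growth factor for granulocytes and macrophages, had 2 counts in library 1 and 0 in library 2, at or below the floor of 3 counts in both. The receptor chain Csf2ra was at 4.26 and 19.61 TPM.

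Mrc1, the mannose receptor CD206, binds sugar chains of microbes and of the body's own glycoproteins, and is a mark of resident macrophages in fat. It lies at chr2:14229392-14332057 on the plus strand and had 2867 and 1620 counts, or 42.06 and 25.75 TPM (33.9 ± 11.5, SD, n = 2). It was the only marker lower in library 2 by scaled counts, total counts and TPM alike. Its log2 ratio of scaled counts was -1.21 (interval -1.30 to -1.12), a level 2.31-fold higher in library 1, its log2 ratio of total counts was -0.77 and its TPM ratio was 0.612. The median gene of its GC content moved as far, and with that trend removed the ratio of Mrc1 was 0.01. The coding transcript Mrc1-201 held 63.61% and 85.19% of the gene's TPM, and the remainder was on Mrc1-202, an annotated retained intron with 48.2% of its 2069 bases outside Mrc1-201. Mrc1-202 had 492.71 counts in library 1 and 96.21 in library 2.

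The relation between the 2 receptors of highest rank after Lyz2 turned over between the libraries. Mrc1 was 6.22 times Csf1r by TPM in library 1, and Csf1r was 2.03 times Mrc1 in library 2. With a GC content of 41.3% for Mrc1 and 54.2% for Csf1r, they are the markers of lowest and highest GC content.

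Cd163, the scavenger receptor for complexes of haemoglobin and haptoglobin (chr6:124304656-124330527, plus strand), had 654 and 788 counts, or 8.97 and 13.83 TPM (11.4 ± 3.44, SD, n = 2). The log2 ratio of its scaled counts was -0.12 (interval -0.27 to 0.03), or 0.43 without the GC trend. Its TPM was higher in library 2, so its direction turns with the scaling. Both coding transcripts were used to a like extent, with Cd163-201 at 49.52% and 59.88% of the gene's TPM. Mrc1 exceeded Cd163 in both libraries, 4.69-fold in library 1 and 1.86-fold in library 2.

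Folr2, the beta form of the folate receptor, which macrophages carry at their surface on a lipid anchor, lies at chr7:101839988-101857194 on the minus strand. Folr2 had 163 and 512 counts, or 10.69 and 42.75 TPM (26.7 ± 22.7, SD, n = 2). It was called higher in library 2 at a log2 ratio of 1.26 (interval 1.01 to 1.53), which lies just past 2-fold, and at 0.51 without the GC trend it was not. The antisense gene Gm10602 overlaps it over 2784 bases and was assigned 16 and 11 counts, and how far antisense reads enter the counts of Folr2 was not tested. Folr2 stood above Cd163 in both libraries, by 1.19-fold and 3.09-fold.

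The other folate carriers had lower or like levels. Folr1, the alpha form that epithelia carry, was at 7.05 and 35.12 TPM, below Folr2 in both libraries. The proton-coupled transporter Slc46a1 was at 1.95 and 21.46 TPM and the reduced folate carrier Slc19a1 at 0.77 and 16.88 TPM. Izumo1r, the egg receptor for sperm, had 0 and 3 counts. All 4 folate genes tested were higher in library 2, with a median log2 ratio of 2.33, which became 0.80 without the GC trend.

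Among the scavenger and mannose receptors as a list, 7 of 12 reached 1 TPM in both libraries, and 5 were higher and 5 lower. Cd36, a fatty acid and lipoprotein receptor that adipocytes express as well, was at 938.84 and 681.81 TPM. Scarb1, the receptor for high-density lipoprotein, was at 13.26 and 97.47 TPM, and Stab1, a scavenger receptor of macrophages and sinusoidal endothelium, at 6.31 and 39.49 TPM. These genes moved in both directions, against 31.3% higher and 19.9% lower of all tested genes, and Mrc1 and Cd163 are on the list. Without the GC trend 2 were higher and 0 lower, against 12% and 9.96% of genes.

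Cd68, a heavily glycosylated protein of lysosomes and late endosomes that is used to stain macrophages, lies at chr11:69664213-69666153 on the minus strand. It had 157 and 534 counts, or 9.22 and 38.26 TPM (23.7 ± 20.5, SD, n = 2). Library 2 was higher, with a log2 ratio of 1.38 (interval 1.12 to 1.64) and 0.29 without the GC trend, so most of its excess was shared with genes of like composition. Cd68-201 held 92.31% and 98.59% of its TPM.

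Lyz2, the lysozyme of macrophages, monocytes and neutrophils, was the most abundant marker (chr10:117277331-117282321, minus strand). Its expected counts were fractional, 3191.30 in library 1 and 6493.67 in library 2, and no other marker had fractional counts, against 11.1% of tested genes that had them in at least 1 library. Its level was 172.94 and 448.43 TPM (311 ± 195, SD, n = 2), and it held 36.6% and 45.3% of all counts of the markers. At percentiles 98.3 and 98.8 among protein-coding genes, its rank differed little. The log2 ratio was 0.64 (interval 0.58 to 0.70) and 0.87 without the GC trend, both under 2-fold. Its TPM was 2.59 times as high in library 2.

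The fractional part of Lyz2 was matched by Lyz1, the lysozyme of intestinal Paneth cells, shown above beside it. Lyz1 had 684.70 and 857.33 counts, or 37.17 and 59.31 TPM, and the counts of the pair summed to 3876 and 7351, whole numbers within 0.005. Lyz2 held 82.3% of that sum in library 1 and 88.3% in library 2. How reads that match both were divided is not visible in the tables, so the level of each gene is uncertain, and the sum is the safer measure, at 210 and 508 TPM with a log2 ratio of 0.54 (interval 0.48 to 0.59). The other lysozyme genes were low. Lyzl6 and Lyzl1, known from the male reproductive tract, were at 1.43 and 3.19 TPM and at 1.76 and 2.26 TPM, and Lyzl4, Spaca3 and Spaca5 were each under 1 TPM in library 1. Of the 6 lysozyme genes tested 2 were higher and 0 lower, and without the GC trend 1 was higher and 0 lower.

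Adgre1 encodes the adhesion receptor known as the F4/80 antigen, the most used surface mark of mouse macrophages (chr17:57358691-57483527, plus strand). It had 542 and 647 counts, or 10.40 and 15.81 TPM (13.1 ± 3.83, SD, n = 2). Scaled counts gave a log2 ratio of -0.13 (interval -0.30 to 0.04), or 0.26 without the GC trend, while TPM was higher in library 2. No direction can therefore be given. Adgre1-202 held 91.55% and 97.77% of its TPM. Csf1r was 0.65 times Adgre1 in library 1 and 3.3 times in library 2, and Adgre1 exceeded Itgam in both, by 1.19-fold and 1.33-fold.

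Itgam, the alpha chain of the complement receptor and integrin CD11b, is shared by macrophages, monocytes and neutrophils (chr7:128062640-128118491, plus strand). It had 617 and 691 counts, or 8.72 and 11.90 TPM (10.3 ± 2.25, SD, n = 2), the narrowest spread of the 10 markers. The log2 ratio of scaled counts was -0.22 (interval -0.38 to -0.06), called in neither direction, and its TPM was higher in library 2. It was the only marker below 0 without the GC trend, at -0.29. The libraries differed in the transcripts behind that total: a transcript of 4310 bases that GENCODE M21 does not hold took 94.56% of its TPM in library 1 and 24.95% in library 2, and Itgam-201 took 0.02% and 61.49%. Itgam-203 held 4.8% and 11.52%. A further 2 transcripts counted under Itgam by the deposited tables belong to Gm49368 in M21, and they took at most 1.52% each.

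The partners of Itgam were present as well. Itgb2, the beta chain with which it forms the receptor, was at 3.58 and 17.79 TPM, below Itgam in library 1 and above it in library 2. Of the sister alpha chains, Itgal of lymphocytes was at 0.58 and 2.09 TPM, Itgax of dendritic cells at 1.44 and 2.71 TPM and Itgad at 0.03 and 0.19 TPM, all below Itgam. Itgax and Itgad shared reads in library 2. Icam1, a ligand on endothelium, was at 2.91 and 11.48 TPM, and the integrin activator Fermt3 at 0.12 and 7.40 TPM. Tln1, a second activator used by all cells, had 557 and 5183 counts but 64.99 and 49.42 TPM, so its direction depends on the scale. Of 6 partners tested 5 were higher and 0 lower, and the median log2 ratio of 1.44 became 0.55 without the GC trend.

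Cd14, the anchored co-receptor that hands endotoxin to Tlr4 (chr18:36725067-36726798, minus strand), had 35 counts in library 1 and 260 in library 2. Its level was 1.48 and 14 TPM (7.74 ± 8.85, SD, n = 2). Of the 10 markers it had the largest ratio of scaled counts, 2.49 on the log2 scale (interval 1.99 to 3.06), and also the largest without the GC trend, 1.46, while by the ratio of TPM Trem2 was larger. The excess over genes of its composition rests on 35 counts in library 1.

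The partners of Cd14 lay on both sides. Tlr4, the signalling receptor, was at 10.40 and 5.69 TPM with a log2 ratio of -1.23 (interval -1.45 to -1.02), and its partner Ly96 was at 28.25 and 15.80 TPM, lower in library 2 as well. Myd88, the adaptor, was at 9.69 and 39.90 TPM and was higher. Lbp, the plasma protein that brings endotoxin to Cd14, was at 51.06 and 67.28 TPM. Ticam1, a second adaptor, was at 0.60 and 12.51 TPM, with a log2 ratio of 3.61 (interval 3.09 to 4.23). Without the GC trend the ratios were 0.09 for Tlr4, -0.24 for Ly96, -0.09 for Myd88 and 1.41 for Ticam1. Of the 8 genes on that list 3 were higher and 2 lower, and without the GC trend 2 were higher, Cd14 and Ticam1, and 0 lower.

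Trem2, a lipid-binding receptor of macrophages and microglia, was the lowest marker (chr17:48346401-48354147, plus strand). It had 23 counts in library 1 and 136 in library 2. The log2 ratio of scaled counts was 2.15 (interval 1.53 to 2.88), and 1.13 without the GC trend. By TPM it was at 0.29 and 9.56 (4.92 ± 6.55, SD, n = 2), a ratio of 33 against 4.44 from scaled counts. The tables gave the gene a length of 4784 bases in library 1 and 1247.14 in library 2, which enters TPM and not the counts. TPM ratios also exceeded those of scaled counts where the length was the same, as for Cd14 at 9.46 against 5.61.

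The assigned transcripts differed as well. In library 1 all 23 counts were assigned to Trem2-203, the retained intron transcript shown above, and the coding transcripts held 0. In library 2 the coding transcript Trem2-201 held 105.50 counts and 91.23% of the TPM, Trem2-202 had 4.94 counts, and Trem2-203 had 25.57 counts, close to its number in library 1. Of the 4784 bases of Trem2-203, 3735 (78.1%) lie outside the exons of Trem2-201, in intron 1 and in a 3' extension of 1874 bases (chr17:48352274-48354147). The remaining bases are common to both transcripts, so the 0 for coding transcripts in library 1 is an estimate of how 23 counts were divided and does not show that coding Trem2 was absent.

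Tyrobp, which encodes DAP12, the signalling partner of Trem2, was at 7.60 and 91.82 TPM, above Trem2 in both libraries. Syk, the kinase downstream, was at 14.35 and 39.98 TPM and Plcg2 at 2.12 and 8.74 TPM. The relatives were scarce: Trem1 had 0 counts in both libraries, and Treml1, Treml2 and Treml4 were each under 1 TPM in both. Hcst, a second adaptor, was at 0.23 and 3.53 TPM. Of 9 genes on the list 3 reached 1 TPM in both, and 4 of 7 tested were higher with 0 lower, a median log2 ratio of 1.30 that became -0.06 without the GC trend.

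**Figure D3:**
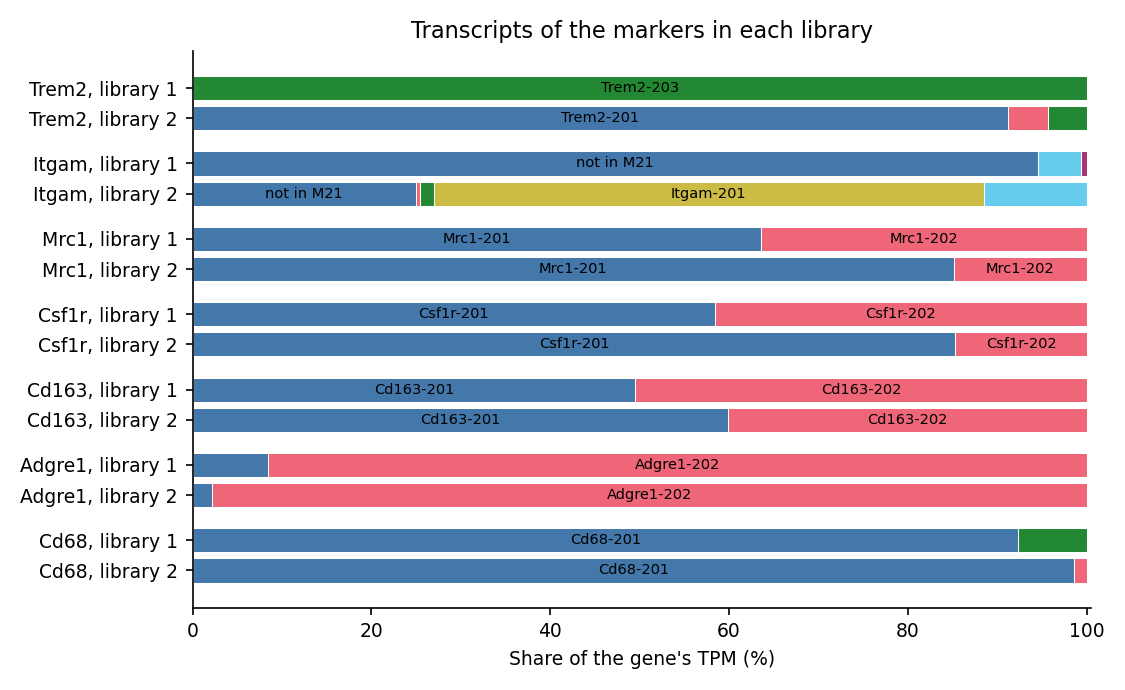
Share of each gene's TPM held by its transcripts, in percent, in library 1 and library 2, for the 7 markers with more than 1 transcript; colours only separate transcripts within a gene, and transcripts at 14% or more are named. Trem2 passed from 100% Trem2-203 to 91.23% Trem2-201, and Itgam from a transcript not in M21 to Itgam-201.

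Other genes of macrophages were described with the markers. All 14 shared macrophage genes reached 1 TPM in both libraries, with medians of 9.33 and 17.7 TPM, close to those of the 10 markers. They moved both ways: 5 were higher and 3 lower, and the median log2 ratio was 0.06, or 0.04 without the GC trend. With that trend removed 2 were higher and 2 lower. The complement genes C1qa, C1qb and C1qc were at 17.07 and 123.26, 10.45 and 120.18, and 3.22 and 113.32 TPM. Ptprc, the surface phosphatase of all white blood cells, was at 13.57 and 10.91 TPM with a log2 ratio of -1.19 (interval -1.33 to -1.04), which became 0.21 without the GC trend.

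Macrophages along vessels are marked by genes such as Lyve1 and F13a1, and 12 of 14 genes on that list reached 1 TPM in both libraries. Their medians were 6.66 and 35.5 TPM, and 9 were higher and 1 lower, against 31.3% and 19.9% of all tested genes. Lyve1, at 20.10 and 21.58 TPM, had a log2 ratio of -0.64 and F13a1 one of -0.78, both called in neither direction. Gas6, a bridge between dying cells and their receptors, was at 7.02 and 136.40 TPM, F13a1, a clotting factor chain, at 42.52 and 41.21 TPM, and the reductase Cbr2 at 4.49 and 55.82 TPM. Of the macrophages that gather around dying fat cells and take up their lipid, 13 of 14 listed genes reached 1 TPM in both libraries, Trem2 being the exception. Their medians were 26.8 and 92.2 TPM, and 7 were higher and 0 lower. The leading genes are used widely outside macrophages: Apoe was at 58.47 and 3173.6 TPM, Cd63, which shared reads in library 1, at 364.64 and 562.88 TPM, and the lysosomal protease Ctsd at 116.93 and 657.16 TPM. Without the GC trend the median ratios of these lists were 0.72 and 0.75 on the log2 scale. On that scale 4 genes of the vessel list were higher and 0 lower, and 5 of the lipid list were higher and 2 lower.

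Transcription factors of macrophages followed no single direction. Of 12, 9 reached 1 TPM in both libraries, and 7 were higher and 2 lower. Without the GC trend 2 were higher and 5 lower, and the median log2 ratio turned from 1.5 to -0.78. Zeb2, a repressor that holds macrophage identity, was at 37.35 and 23.62 TPM, Klf4 at 18.70 and 24.63 TPM and Maf at 18.45 and 14.60 TPM.

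White blood cells that share some of the markers were present at several levels. Monocyte genes had medians of 7.5 and 13.8 TPM and summed to 263 and 616 TPM, led by Ace, Plac8 and Fn1, with 7 of 10 reaching 1 TPM in both. Ace and Fn1 are not particular to monocytes. Neutrophil genes had medians of 0.125 and 0.485 TPM and summed to 23.9 and 84.1 TPM, of which Ltf, an iron-binding protein that epithelia secrete as well, made up 18.53 and 73.28 TPM. Of the 12 neutrophil genes 4 reached 1 TPM in both libraries, among them S100a8 at 2.27 and 3.21 TPM, S100a9 at 1.26 and 2.25 TPM and Retnlg at 1.39 and 2.64 TPM. Csf3r was at 0.16 and 1.65 TPM, and Ly6g, Mpo and Ngp had 0 counts in both libraries. Dendritic cell genes had median levels of 2.4 and 1.78 TPM and summed to 126 and 1000.0 TPM, nearly all of it Cst3, a secreted protease inhibitor, at 106.00 and 973.67 TPM. The part of monocytes, neutrophils and dendritic cells in the marker levels was not tested.

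Genes of further white blood cells were measured too. Mast cell genes had median levels of 2.46 and 6.28 TPM, with 5 of 8 reaching 1 TPM in both, and summed to 21.8 and 40.6 TPM. T cell genes had median levels of 0.615 and 1.31 TPM and 1 of 8 at that level, summing to 5.69 and 19.8 TPM. B cell genes summed to 0.99 and 3.45 TPM and eosinophil genes to 1.91 and 2.88 TPM, with 0 of 6 at that level in each list and Epx at 0 in both libraries. The 10 markers themselves summed to 272 and 672 TPM.

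**Figure D4:**
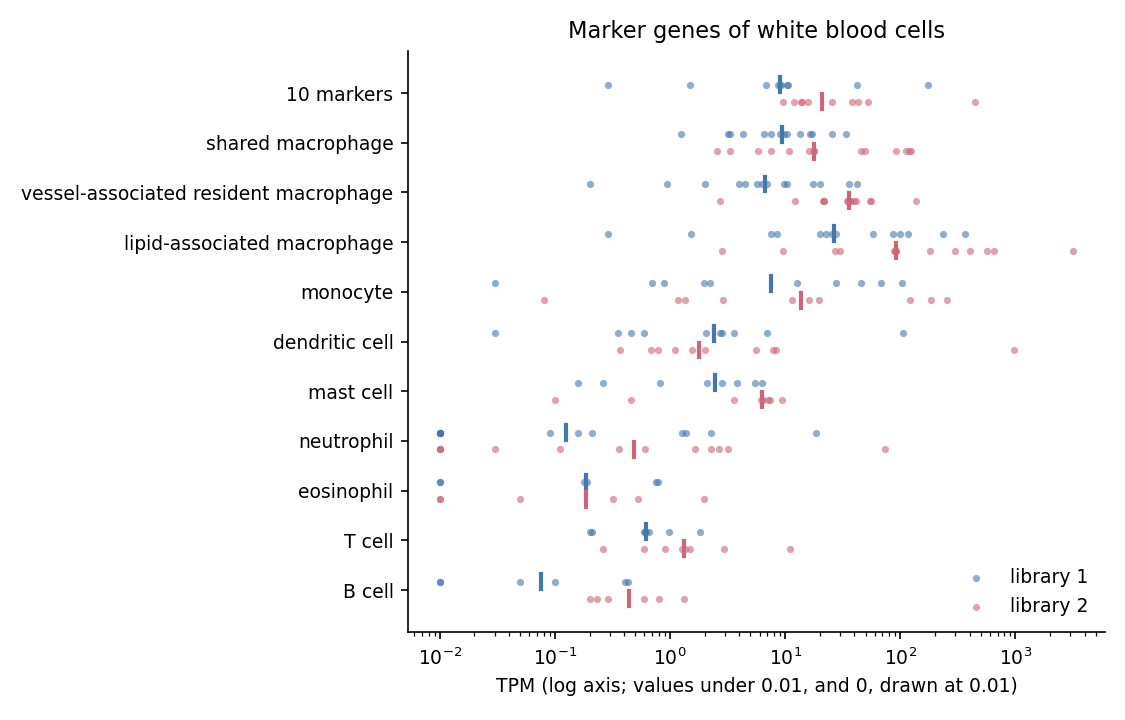
TPM (log axis) of the 10 markers and of marker lists of macrophage states and other white blood cells, 1 point per gene and library, with a vertical bar at the median of each library. The macrophage lists have medians between 6.66 and 92.2 TPM, and the neutrophil, eosinophil and B cell lists have medians under 1 TPM in both libraries.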

How the data were processed

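Polyadenylated RNA of 1 adipose biosample was measured in 2 technical libraries. For genes and transcripts alike, the deposited tables hold expected counts, which can be fractional, as well as TPM and FPKM, per the file headers. Posterior means of counts and TPM are deposited beside them, and so is the percent of a gene's TPM held by each transcript, per the file headers. Files were made on mm10 with GENCODE M4, per the text deposited with them. Aligner, quantifier and any use of strand were not given in the sources used here. Symbols, coordinates, GC content and sequences came from GENCODE M21 on the same assembly, and 42462 of 43346 identifiers matched.

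Expected counts were rounded, scaled by TMM (edgeR 4.0.16, R 4.3.3) over the whole table, and 0.5 was added for log2 ratios of library 2 over library 1. Genes with at least 10 counts summed (18275) were tested against a 2-fold limit. With 1 library a side no p-value exists. Intervals are 95% exact Clopper-Pearson intervals of counting error (scipy 1.17.1). The GC trend was the median ratio in 40 bins of equal size, and 99.3% of tested genes had a GC value. A count was whole within 0.005. The ratio was tested on simulated data first.

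The markers and the 22 other gene lists were chosen with earlier results of these data known. Named were all 10 markers, up to 3 genes of highest mean TPM in each list, Ptprc, Csf1, Il34 and Tyrobp, and the lysozyme, folate, TREM and integrin relatives. Csf2, Tlr4, Ticam1, S100a9, Csf3r, Lyve1, Epx, Tnf, Il6, Arg1 and the neutrophil genes at 0 fall outside that rule. They were chosen after their values were seen. No gene was sought for likeness of pattern, because 2 libraries give no pattern. Alternatives were DESeq2 1.42.0 size factors, total counts, other pseudocounts, filters and detection limits, posterior means, FPKM, scaling without mitochondrial genes, other GC fits and each library alone. Ratios of TPM, Lyz1 and Lyz2 summed, and coding transcripts alone were added after the data were seen. Python 3.11.15, numpy 2.4.6, pandas 2.3.3 and matplotlib 3.10.9 were used.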

Additional observations from a re-analysis of the deposited data

How the results depend on the processing

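Removal of the GC trend took the markers higher in library 2 from 5 to 2, the markers lower from 1 to 0 and their median log2 ratio from 0.95 to 0.47. It turned Mrc1 from -1.21 to 0.01, the macrophage transcription factor median from 1.5 to -0.78 and the TREM and DAP12 median from 1.30 to -0.06. Scaling to total counts, which shifts every log2 ratio up by 0.44, left 0 markers lower and 6 higher, as did the ratio of TPM, which gave a median log2 ratio of 1.69. The sixth was Lyz2 in both. The cause of these changes was not tested. DESeq2 size factors, other pseudocounts, count filters, posterior means and TMM without mitochondrial genes kept 5 higher and 1 lower. The median TPM of the markers ran from 9.1 to 20.8 with each library alone, around 18.4 for the mean. Of the 10 markers, 8 reached 5 TPM in both libraries. With coding transcripts alone 8 reached 1 TPM, and 9 with transcripts absent from M21 counted as well, since the 4310-base transcript of Itgam has no class there. No paired analysis was possible because the labels hold a single group. Counts of 23 for Trem2 and 35 for Cd14 in library 1 limit their ratios.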

Other observations

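Signals that macrophages send out were mostly low, while genes of alternative activation included abundant ones. Of 12 inflammatory genes, 4 reached 1 TPM in both libraries, with medians of 0.49 and 0.925 TPM. The highest were the monocyte chemokine Ccl2 at 9.49 and 17.71 TPM, Il18 at 9.20 and 6.20 TPM and Ptgs2, the inducible cyclooxygenase, at 2.92 and 2.24 TPM. Of 8 tested 1 was higher and 3 were lower in library 2, against 31.3% and 19.9% of all tested genes. Without the GC trend 1 was higher and 0 lower. Tnf had 5 and 10 counts and Il6 had 5 and 1, both chosen after their values were seen.

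Of 12 genes of alternative activation, 7 reached 1 TPM in both libraries, with medians of 1.69 and 4.82 TPM. Of 10 tested 4 were higher and 0 lower, against 31.3% and 19.9% of all tested genes. Without the GC trend 0 were higher and 0 lower, against 12% and 9.96% of genes. Retnla, a secreted protein of alternatively activated macrophages that adipose tissue is known to express, was at 294.50 and 564.38 TPM, close to Lyz2. Tgm2, a transglutaminase, was at 8.27 and 117.66 TPM, and Pparg, the fat cell regulator, at 40.55 and 54.26 TPM. Arg1 had 7 and 10 counts and was chosen after its values were seen.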
